A study of Mus musculus with 6 samples.

Results

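This account follows 5 genes of cholesterol handling, Fdps, Lss, Msmo1, Nsdhl and Abca1, in NIH-3T3 fibroblasts, an established line from mouse embryos that the labels give as wild type. Cells grown on a scaffold called Nanopore #3 (3 libraries) were compared with cells grown on standard plates (3 libraries), and all 6 libraries came from cells kept in DMEM with fetal bovine serum. The series asks how the scaffold affects gene expression in fibroblasts. The labels state neither the material of the scaffold nor the time in culture, and name no separate cultures behind the 3 libraries of a group, so their spread may be technical. The 5 genes were picked by name from the 581 genes that the authors list as differentially expressed on these same libraries. Their direction and size on the scaffold therefore belong to the choice and are given as a description, with no test.

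Cells make cholesterol from acetyl-CoA through mevalonate and farnesyl diphosphate to squalene. Squalene is oxidised, cyclised to lanosterol and then trimmed and rearranged to cholesterol. Most genes of this route are known targets of SREBP2, a membrane-bound transcription factor that is released when sterol in the endoplasmic reticulum is low, and which acts at promoters together with the factors NF-Y and Sp1. When sterol is plentiful, oxysterols activate the nuclear receptor LXR, which is known to drive genes of cholesterol export, Abca1 among them. Fdps makes farnesyl diphosphate and Lss closes the rings of lanosterol. Msmo1 and Nsdhl act in turn to remove methyl groups at carbon 4 of the sterol. Abca1 passes cholesterol and phospholipid from the plasma membrane to apolipoprotein A-I.

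The promoters are shown first, because the enzymes and the exporter are known to be controlled by different factors. RefSeq start sites (GRCm38.p6) were found for 4 of the 5 genes, all but Fdps. The 250 bases before each start are at chr10:76531355-76531604 on the plus strand for Lss, chr8:64733579-64733828 on the minus strand for Msmo1, chrX:72918271-72918520 on the plus strand for Nsdhl and chr4:53159896-53160145 on the minus strand for Abca1. Each is printed 5′ to 3′ in the direction of transcription, and capitals mark every match on either strand to the CCAAT box bound by NF-Y (CCAAT), the GC box bound by Sp1 (GGGCGG), the E-box (CACGTG) and, in Abca1, a pattern of the DR4 type to which LXR binds (TGACCNNNNNTNACC).
Lss: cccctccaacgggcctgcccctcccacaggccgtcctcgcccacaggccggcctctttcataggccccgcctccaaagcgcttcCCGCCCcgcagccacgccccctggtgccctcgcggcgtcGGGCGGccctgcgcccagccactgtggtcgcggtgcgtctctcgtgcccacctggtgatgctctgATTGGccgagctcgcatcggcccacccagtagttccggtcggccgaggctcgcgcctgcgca
Msmo1: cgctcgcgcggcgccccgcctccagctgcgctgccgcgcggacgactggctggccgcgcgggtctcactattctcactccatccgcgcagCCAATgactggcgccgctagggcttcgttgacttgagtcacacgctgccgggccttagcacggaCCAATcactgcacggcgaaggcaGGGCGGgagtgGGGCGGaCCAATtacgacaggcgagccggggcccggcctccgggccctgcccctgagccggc
Nsdhl: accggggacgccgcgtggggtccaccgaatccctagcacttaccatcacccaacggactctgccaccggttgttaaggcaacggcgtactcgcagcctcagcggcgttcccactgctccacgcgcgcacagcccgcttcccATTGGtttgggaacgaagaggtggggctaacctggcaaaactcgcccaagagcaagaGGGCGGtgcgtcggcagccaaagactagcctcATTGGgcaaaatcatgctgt
Abca1: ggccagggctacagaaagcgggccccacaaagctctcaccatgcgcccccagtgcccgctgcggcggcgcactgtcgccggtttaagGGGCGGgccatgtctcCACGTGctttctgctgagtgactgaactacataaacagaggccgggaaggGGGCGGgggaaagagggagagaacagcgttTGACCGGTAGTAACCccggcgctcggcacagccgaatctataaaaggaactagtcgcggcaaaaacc

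All 3 enzyme promoters held at least 1 CCAAT box, and that of Abca1 held none. Msmo1 had 3 CCAAT boxes, the nearest ending 51 bases before the RefSeq start, Nsdhl had 2 and Lss had 1. By the gene coordinates of the table, which match GENCODE M21, Msmo1 starts further upstream, at 64733792. Most of its window, with all 3 CCAAT boxes, lies inside the gene by that annotation. The last few bases of the Lss window also lie inside Lss, which starts there at 76531588. Of 32851 RefSeq promoter windows, 33.8% held at least 1 CCAAT box in the same 250 bases, 10.1% at least 2 and 2.79% at least 3. GC boxes were found in all 4 promoters, with 2 each in Lss, Msmo1 and Abca1 and 1 in Nsdhl, against at least 1 in 32.7% of all windows. The 4 promoters are rich in G and C, at 73.6% in Lss, 72.0% in Msmo1 and 61.6% in both Nsdhl and Abca1, where the median of all windows is 52.4%. A sterol regulatory element spelled TCACNCCAC, held by 1.05% of windows, was not among the letters of any of the 4. Only this exact spelling was searched, so other forms of the element were not looked for. Abca1 alone of the 4 held an E-box, found in 6.02% of windows, and the DR4-type match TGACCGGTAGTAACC, from 67 to 53 bases before the start. The DR4 letters were chosen after this promoter had been read, and 0.177% of all windows match them. No motif match overlapped another, and a match describes letters and not binding.

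**Figure D1:**
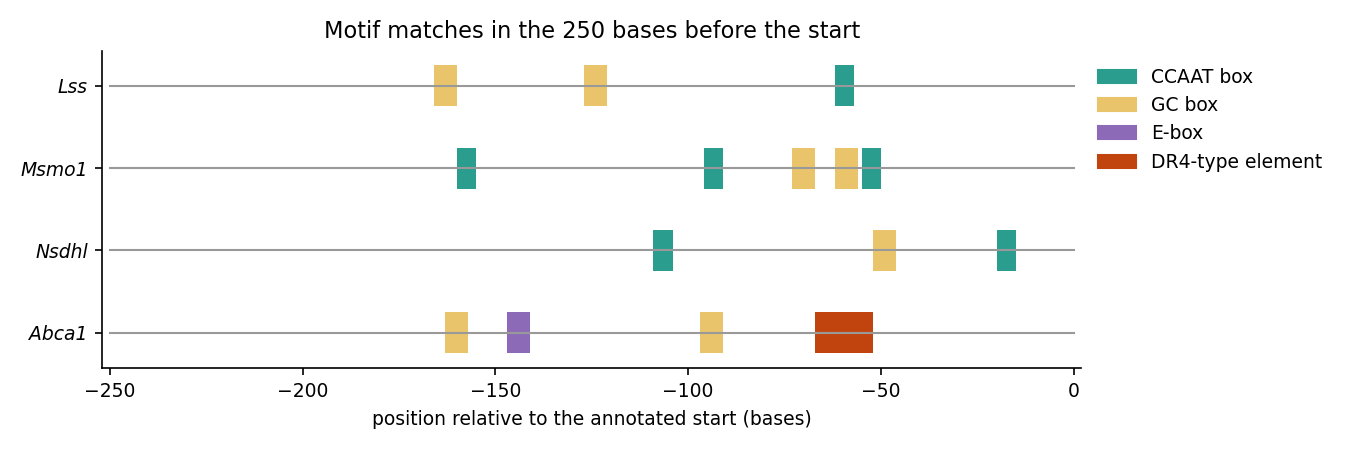
Motif matches on either strand in the 250 bases before the RefSeq start of Lss, Msmo1, Nsdhl and Abca1, by distance from the start in bases. The 3 enzymes hold between 1 and 3 CCAAT boxes and Abca1 holds none.

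In the 5 libraries whose reads could be recovered, the 581 genes held between 264178 and 293198 reads per library, and the size factors that had scaled all 6 ran from 0.944 to 1.09. The values given below are read counts divided by these factors, written as normalised read counts. Scaffold replicate 1 stood somewhat apart from scaffold replicate 2: the chi-square of their reads was 8.51 per gene, where 1 is the value of counting error alone and pairs of plate libraries gave 1.93 to 2.55. Set against the plate libraries, the same measure was 162 to 166 for scaffold replicate 1 and 207 to 213 for scaffold replicate 2. Without scaffold replicate 1 the log2 differences were 1.22 for Fdps, 1.15 for Lss, 1.11 for Msmo1, 1.01 for Nsdhl and -2.52 for Abca1. Of 11 fibroblast marker genes, 2 are among the 581, the collagen genes Col1a1 and Col1a2, whose summed value was 30363, 24126 and 23212 on the scaffold and 56194, 57213 and 57427 on plates. Of 4 epithelial markers, the keratin gene Krt8 is in the table, at 29.8 to 37.6 on the scaffold and 13.3 to 17.5 on plates. None of the 6 macrophage, 4 endothelial, 5 adipocyte and 4 skeletal muscle markers is in the table, and their levels were not analysed here. The part of the Col1a1, Col1a2 and Krt8 shifts in the results below was not tested. In bulk RNA, a change in the make-up of the cells and a change in RNA per cell cannot be told apart.

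The 4 synthesis enzymes were each between 2.06-fold and 2.26-fold higher on the scaffold than on plates, and the exporter Abca1 was 4.85-fold lower. In all 5 genes the scaffold and plate libraries did not overlap, which held for 98.6% of the 581 genes (32.2% with the scaffold higher and 66.4% with it lower). In a limma fit over the whole table all 5 also passed an adjusted p of 0.05, as did 99.7% of the 581, so neither count says anything particular about these genes. Higher calls on the scaffold made up 32.2% of the table and lower calls 67.5%.

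Fdps, the farnesyl diphosphate synthase gene (ENSMUSG00000059743, chromosome 3, 89093588 to 89101959, minus strand, GRCm38), had values of 270.4, 304 and 290.0 on the scaffold and 145, 129 and 109 on plates. The lowest scaffold library lay 1.86-fold above the highest plate library. The mean was 288 ± 16.8 on the scaffold and 128 ± 17.9 on plates (SD, n = 3 each), a log2 difference of 1.17 (SE 0.140). The plate libraries spread by 14.0% of their mean, the widest relative spread of the enzymes, where counting error alone would give an SD of 11.3. The reads of Fdps are the least certain of the 5 genes. In GENCODE M21, 81.6% of its 1382-base transcript matches the protein-coding gene Gm43738, which overlaps it on the same strand, and 5 processed pseudogenes match parts of it at 95% identity or more over at least 100 bases. Together these 6 genes match 91.4% of the transcript. How reads matching several genes were counted is not given in the sources used here.

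Lss, lanosterol synthase (ENSMUSG00000033105, chromosome 10, 76531588 to 76557138, plus strand), had values of 4815, 4744 and 4755 on the scaffold and 2152, 2070.4 and 2181 on plates. These were the tightest replicates among the 5 genes, with a scaffold spread of 0.794% of the mean and a plate spread of 2.70%. The mean was 4771 ± 37.9 on the scaffold and 2135 ± 57.6 on plates (SD, n = 3 each), 2.24-fold higher, a log2 difference of 1.16 (SE 0.0588). The scaffold SD lay below the 69.1 that counting error alone would give, and the plate SD above its 46.2. An antisense gene, 4930483K19Rik, shares 3.53% of the exon length of Lss.

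Msmo1, methylsterol monooxygenase 1 (ENSMUSG00000031604, chromosome 8, 64718139 to 64733792, minus strand), had values of 8001, 8457 and 7753 on the scaffold and 3996, 3613 and 3632 on plates. It carried the most reads of the 5 genes in every library, and its lowest scaffold library was 1.94-fold above its highest plate library. The mean was 8070.5 ± 357 on the scaffold and 3747 ± 216 on plates (SD, n = 3 each), a log2 difference of 1.11 (SE 0.0641). Both SDs were above counting error, which would be 89.8 on the scaffold and 61.2 on plates. No transcript of another gene matched Msmo1 at 95% identity over 100 bases, and no exon of another gene overlaps it.

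Nsdhl, the sterol dehydrogenase that follows Msmo1 in the route (ENSMUSG00000031349, chromosome X, 72918557 to 72958514, plus strand), had values of 1855, 1776 and 1742 on the scaffold and 890.0, 834 and 891 on plates. It showed the smallest difference of the 4 enzymes, with its lowest scaffold library 1.96-fold above its highest plate library. The mean was 1791 ± 57.9 on the scaffold and 871 ± 32.9 on plates (SD, n = 3 each), 2.06-fold higher, a log2 difference of 1.04 (SE 0.0748). Like Msmo1 and Abca1, it shares no exon with another annotated gene and has no matching copy among annotated transcripts.

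Abca1, the cholesterol exporter (ENSMUSG00000015243, chromosome 4, 53030787 to 53159895, minus strand), had values of 28.8, 18.0 and 15.8 on the scaffold and 96.5, 102 and 106 on plates. It moved opposite to the enzymes, and its highest scaffold library stood 3.35-fold below its lowest plate library. The mean was 20.9 ± 6.94 on the scaffold and 101 ± 4.57 on plates (SD, n = 3 each), a log2 difference of -2.27 (SE 0.243). The scaffold libraries varied by 33.2% of their mean and the plate libraries by 4.51%. Counting error alone would give an SD of 4.57 on the scaffold and 10.1 on plates. The scaffold SD lay above this and the plate SD below it. Few reads stand behind the scaffold values: scaffold replicates 1 and 2 held 45 reads of Abca1 and the 3 plate libraries 315, a normalised ratio of 4.31 for plates over the scaffold (95% exact interval 3.15 to 6.03, counting error only). Scaffold replicate 1, the highest of the 3, was also the scaffold library with the most Col1a1 and Col1a2. Leaving it out took the log2 difference of Abca1 to -2.52, and leaving out scaffold replicate 3 took it to -2.10.

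**Figure D2:**
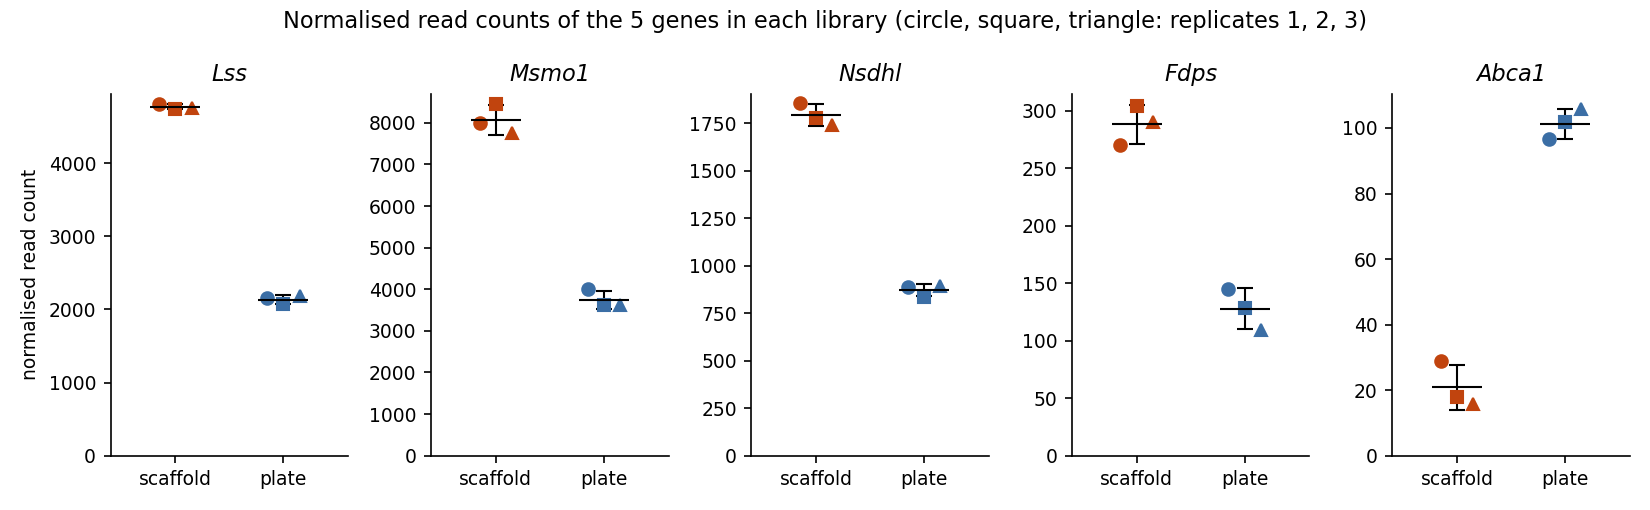
Normalised read counts of the 5 genes in the 3 scaffold and 3 plate libraries, each panel with its own axis from 0, with points for libraries and bars for the mean ± SD. The scaffold libraries lie above the plate libraries for Lss, Msmo1, Nsdhl and Fdps and below them for Abca1, where scaffold replicate 1 is highest at 28.8.

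In the deposited scaling the differences of the 4 enzymes lay close together. Their log2 differences ran from 1.04 in Nsdhl to 1.17 in Fdps, a gap of 0.14. The standard error of that gap was 0.159, taken as if both genes were independent, though they come from the same libraries. The gap was 0.21 without scaffold replicate 1, 0.22 without plate replicate 1 and 0.98 under quantile normalisation, where Lss was lowest and Fdps highest. Among the 189 genes of the table with a higher mean on the scaffold, they ranked 137 (Fdps), 141 (Lss), 158 (Msmo1) and 176 (Nsdhl) by size. Their median log2 difference was 1.13, where that of all the higher genes was 1.39. They thus lay close to the lower edge of the table, whose smallest difference of group means is 1.00 on the log2 scale. Abca1 ranked 30 among 392 lower genes, whose median log2 difference was -1.38.

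**Figure D3:**
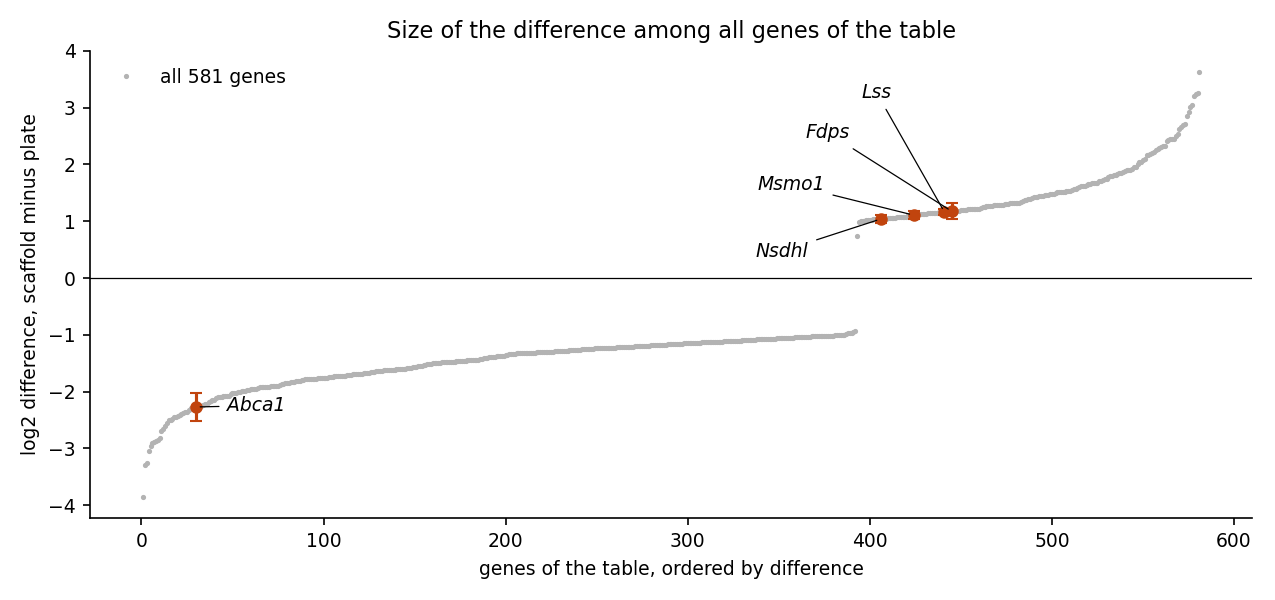
Log2 differences of all 581 genes (grey), scaffold minus plate, in order of size, with the 5 genes in orange and bars for ± 1 standard error. The 4 enzymes lie between 1.04 and 1.17, near the lower edge of the higher genes, and Abca1 lies at -2.27.

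The make-up of the summed enzyme reads was nearly the same on both surfaces, a measure that no factor per library can alter. The shares and ratios given here are of normalised read counts, with no correction for length. All 4 were chosen as higher, in a table whose smallest difference of group means is 1.00 on the log2 scale. Part of this likeness therefore comes with the choice. The 4 enzymes summed to 14941, 15282 and 14540.3 on the scaffold and 7184, 6645 and 6814 on plates. Msmo1 took 54.1% ± 1.11 of this sum on the scaffold and 54.4% ± 1.16 on plates, and Lss took 32.0% ± 0.855 on the scaffold and 31.0% ± 1.03 on plates (SD, n = 3 each). Nsdhl took 11.6% to 12.4% on the scaffold and 12.4% to 13.1% on plates, and Fdps 1.81% to 1.99% on the scaffold and 1.61% to 2.02% on plates. The ratio of Lss to Nsdhl differed a little, at 2.60 to 2.73 on the scaffold and 2.42 to 2.48 on plates, without overlap. The ratio of Msmo1 to Nsdhl overlapped, at 4.31 to 4.76 on the scaffold and 4.08 to 4.49 on plates. So did that of Fdps to Nsdhl, at 0.146 to 0.171 on the scaffold and 0.123 to 0.163 on plates. The ratio of the summed enzymes to Abca1 within a library was 519, 849 and 918 on the scaffold, against 74.4, 65.2 and 64.5 on plates. Its mean was 11.2-fold higher on the scaffold, and scaffold replicate 1 had the lowest ratio of the 3. The enzymes were chosen as higher and Abca1 as lower, so the shift in this ratio comes with the choice.

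**Figure D4:**
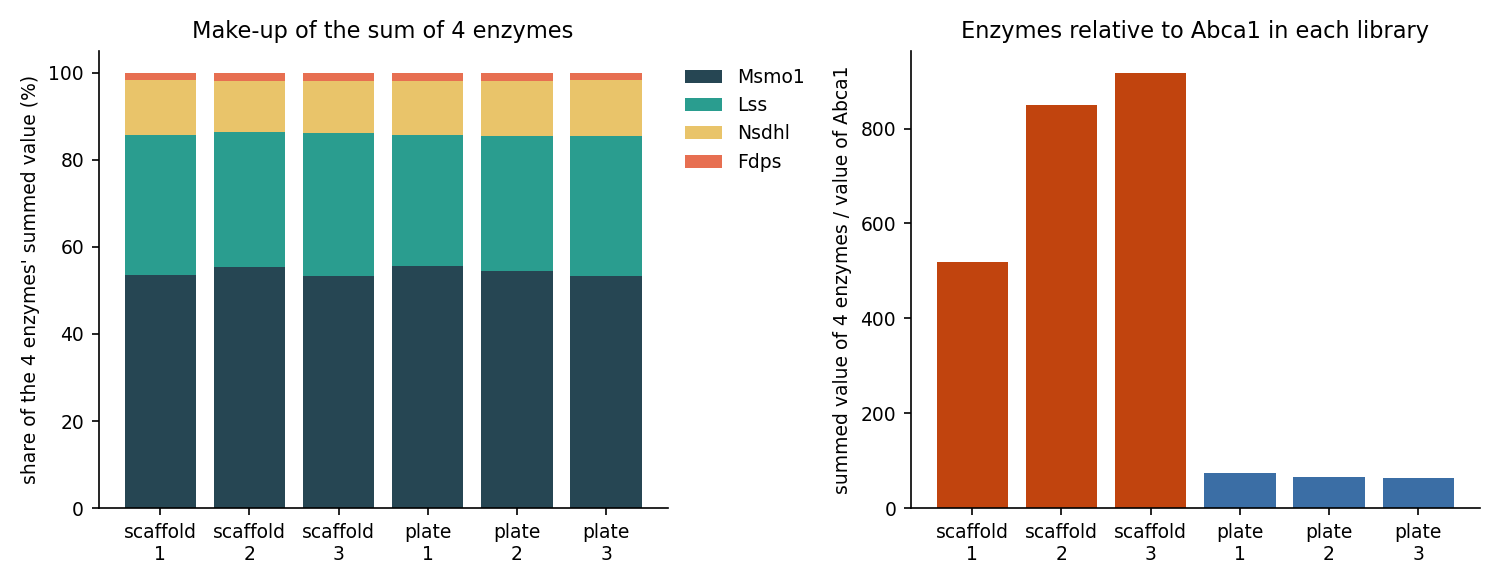
Left, the share in percent of each enzyme in the summed normalised read count of the 4 enzymes, by library; right, that sum divided by the value of Abca1. Msmo1 makes up 53.3% to 55.6% of the sum in every library, while the ratio to Abca1 is 519 to 918 on the scaffold and 64.5 to 74.4 on plates.

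Levels of different genes can be set side by side only per length. Per kilobase of the longest transcript with a consensus coding sequence, normalised read counts on the scaffold were 3948 ± 175 for Msmo1, 1022 ± 8.12 for Lss, 826 ± 26.7 for Nsdhl, 209 ± 12.2 for Fdps and 2.03 ± 0.676 for Abca1 (SD, n = 3). On plates the levels per kilobase were 1833 ± 106 for Msmo1, 457 ± 12.3 for Lss, 402 ± 15.2 for Nsdhl, 92.5 ± 13.0 for Fdps and 9.88 ± 0.446 for Abca1. The order of the genes was the same on both surfaces, and neighbours in it lay apart by more than their SDs. The place of Lss rests on the length used: by the gene length in the deposited table, 10787 bases in place of 4667, Lss had 442 per kilobase on the scaffold and Nsdhl 628. The level of Fdps carries the uncertainty of its shared sequence.

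The other genes of cholesterol handling are mostly outside this table. Of 24 genes of cholesterol synthesis, 4 were in the table, and all 4, chosen from it as higher, were called higher, beside 32.2% of all 581 genes. Of 18 genes of LXR signalling, cholesterol efflux, oxysterols and esterification, Abca1 was in the table and was called lower, beside 67.5% of all 581 genes. None of 18 genes of the SREBP machinery and cholesterol uptake was in it, nor any of 16 of fatty acid synthesis or 10 of the non-sterol isoprenoid branch. These genes were not analysed here, and their absence from a list of selected genes does not give their level. The lists do not cover every gene of lipid transport. Outside them, the table held the phospholipid transfer protein gene Pltp, lower on the scaffold with a log2 difference of -1.03 (SE 0.282). It also held the endothelial lipase gene Lipg, higher on the scaffold with a log2 difference of 1.27 (SE 0.0954).

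The table held 3 genes of ATP-binding cassette transporters, and all 3 were called lower on the scaffold, as were 67.5% of all 581 genes, so the count says little about transporters. Abca1 showed the largest difference of the 3. Abcd2, which imports very long chain fatty acyl-CoA into peroxisomes, had values of 241, 271 and 244 on the scaffold and 546, 542 and 546 on plates, a log2 difference of -1.11 (SE 0.101). Abca8b, a relative of Abca1, had values of 45.2, 40.2 and 32.7 on the scaffold and 93.8, 87.5 and 109 on plates, a log2 difference of -1.28 (SE 0.194). Both differences were smaller than that of Abca1.

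Profiles near that of the enzymes were sought among the other genes of the table, which hold no further member of the sterol, fatty acid or isoprenoid lists. Likeness was measured as the root mean square distance between log2 profiles over the 6 libraries, each centred on its own mean, and the 3 nearest genes outside the 5 were named. Nearest to the mean of the 4 enzymes was Ccl2, a monocyte chemoattractant, at a distance of 0.0230, with 3588 ± 98.3 on the scaffold and 1644 ± 114 on plates (SD, n = 3 each). The transcription factor gene Foxc2 followed at 0.0480, with 1587 ± 18.3 on the scaffold and 772 ± 32.1 on plates. Next came Dusp6, a phosphatase that acts on ERK, at 0.0490. Among the enzymes themselves, the distance of each to the mean of the other 3 was 0.0308 for Msmo1, 0.0692 for Lss, 0.0873 for Nsdhl and 0.129 for Fdps. Ccl2, Foxc2 and Dusp6 were picked for the smallest distances, to a mean of 4 enzymes. Their distances and those of the enzymes are therefore not alike.

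Nearest to Abca1 was Rab3c, a small GTPase of secretory vesicles, at a distance of 0.0975. Rab3c had values of 106, 61.4 and 59.4 on the scaffold and 311, 318 and 319.8 on plates. Tmem119, a transmembrane protein of osteoblasts, followed at 0.165, with 186, 97.4 and 72.3 on the scaffold and 555, 557 and 616 on plates. Next came Cemip, which takes part in hyaluronan breakdown, at 0.195. Scaffold replicate 1 had the highest scaffold value in all 3, as in Abca1, which choosing them by likeness to Abca1 builds in.

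The size of the 5 differences rests on how the libraries are scaled to each other, while their direction did not turn under any scaling tried. Rescaling the 6 libraries to equal medians over the table moved the median log2 difference of all genes by 0.74 and brought the enzymes to 1.78 to 1.92 and Abca1 to -1.53. Quantile normalisation over the table moved that median by 0.63 and gave 0.58 for Lss, 0.64 for Nsdhl, 0.82 for Msmo1, 1.56 for Fdps and -1.59 for Abca1. Both use only the selected genes, most of which were lower on the scaffold, so they do not test the deposited scaling.

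**Figure D5:**
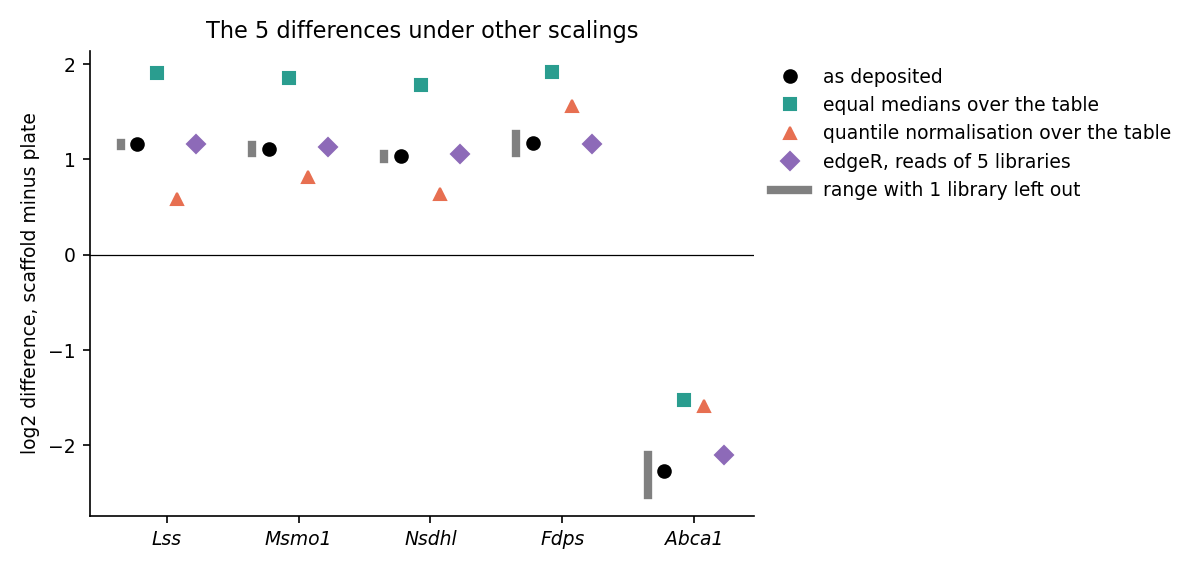
Log2 differences of the 5 genes, scaffold minus plate, as deposited, under 2 rescalings over the table and in edgeR on the reads of 5 libraries, with a grey bar for the range when 1 library is left out. The 4 enzymes stay between 0.58 and 1.92 and Abca1 between -2.52 and -1.53.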

How the data were processed

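TRIzol served for RNA extraction and a NEBNext Ultra kit for the libraries, per the labels' protocols. The tools fastp, HISAT2, HTSeq and DESeq2 and the build GRCm39 are named, without versions or roles, per the submitters' processing notes. The authors deposited 2 tables, 1 per group, of the same 581 selected genes. The deposited values are a normalised signal, in which each library's reads had been divided by its own size factor. The tables are named for FPKM, but all values of a library were whole multiples of 1 step within 0.01 read, whatever the gene length. Whole reads were accepted as recovered for 5 libraries, and not for scaffold replicate 3, whose step of 0.98987 lies close to 1. Groups came from the sample titles. No column of values was left out.

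Differences and standard errors came from limma 3.58.1 (R 4.3.3) on log2(value + 1) over all genes with a mean of at least 0.5, with an intensity trend and no block, adjusted by Benjamini and Hochberg at 0.05. The fit was also tested on simulated data. Folds are ratios of group means. Coordinates are those of the table, which match GRCm38: of its 581 identifiers, 555 had the same start and end in GENCODE M21. Shared exons and copies (BLAST, at least 95% identity over at least 100 bases) came from that annotation, and promoters from RefSeq. The 5 genes, the gene lists and the rule for named genes were chosen with earlier results of these data known. Named are the 5 genes, list members in the table, genes with overlapping exons and the 3 nearest profiles to the enzymes and to Abca1. Pltp and Lipg were named outside this rule. Alternatives were other pseudocounts, filters and scalings, no trend, a replicate block, leaving out each library, edgeR 4.0.16 and DESeq2 1.42.0 on recovered reads, and, added after seeing the data, ratios of group means and the table's gene lengths.

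Same-numbered libraries did not vary together (correlations of deviations across genes -0.0287, 0.0728 and 0.0576), so the numbers were not taken as pairs.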

Additional observations from a re-analysis of the deposited data

How the results depend on the processing

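The 5 log2 differences kept their direction under all 17 alternatives, and in each gene 15 moved the value by less than 1 replicate SD. The exceptions were the 2 rescalings over the table. Other filters, no trend and the replicate block cannot change a difference of means here, so their sameness was fixed in advance. As the groups do not overlap, leaving out 1 library, another pseudocount or ratios of group means could not turn a direction either. The same holds for edgeR and DESeq2, which used the deposited size factors. Equal medians raised every log2 difference by 0.74, so the direction of the enzymes could not turn there. Equal medians gave 1.90 for Lss, 1.85 for Msmo1, 1.78 for Nsdhl, 1.92 for Fdps and -1.53 for Abca1. Quantile normalisation gave 0.58 for Lss, 0.82 for Msmo1, 0.64 for Nsdhl, 1.56 for Fdps and -1.59 for Abca1. Leaving out 1 library gave 1.14 to 1.18 for Lss, 1.07 to 1.15 for Msmo1, 1.01 to 1.06 for Nsdhl, 1.07 to 1.27 for Fdps and -2.52 to -2.10 for Abca1. As the replicate numbers did not pair the libraries, the fit with the replicate block is given once: it called 580 of 581 genes in place of 579. Counts of called genes ran from 389 of 581 (equal medians) to 580, and the 5 genes, with Abcd2 and Abca8b (7 in all), were called under every fit run. All 7 come from a table selected on this same contrast, so this says nothing particular about them. Lower calls were 67.7% of calls as deposited, 51.4% with equal medians and 52.9% after quantile normalisation. The edgeR test called 580 genes and DESeq2 554. In the 300-base window, 37.4% of promoters held a CCAAT box and 1.24% the sterol element. Depth limits Abca1 on the scaffold, with 45 reads in 2 libraries, and shared sequence limits Fdps.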
